A study of Xenopus laevis with 18 samples.

Results

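The transcription factors of the pronephric kidney field were read by 17 probe sets of 8 gene symbols, of 32475 probe sets and 11303 symbols on the array. A probe set was taken when the array annotation gave it a single symbol and that symbol was lhx1.L (3 probe sets), osr1.L, osr2.L or osr2.S (1 each), pax8.L (2), pax2.L (6), pax2-b (1) or mecom.L (2). The endings .L and .S mark the homeologs of Xenopus laevis, the gene copies on its long and short subgenomes. The RNA came from explants of the lateral marginal zone, the flank of the gastrula from which lateral mesoderm and the kidney field arise. All embryos had received GFP mRNA in each of 4 blastomeres at the 4-cell stage. In the arm labelled RA-depleted the mix also held mRNA for cyp26, whose product degrades retinoic acid (RA), and in the arm labelled control it held GFP mRNA alone. Both arms were explanted at early gastrula, and the pieces were kept for 1 h at 20 °C (early gastrula), for 3 h at 20 °C (mid-gastrula) or overnight at 14 °C (early neurula), so culture time and temperature change with the stage. Each of the 6 groups held 3 arrays, which the labels call biological replicates and number from 1 to 3. The labels do not say what arrays with the same number share, nor how many embryos or explants went into a sample. The title of the study asks for RA targets in the lateral mesoderm.

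The pronephros is the first functional kidney of the frog embryo, and it forms from intermediate mesoderm beside the somites. Lhx1, a LIM homeodomain protein, Osr1 and Osr2, zinc finger proteins of the odd-skipped family, and Pax8, a paired-box protein, act early, when the field is set aside. Pax2, a close relative of Pax8, and Mecom, a zinc finger protein also called Evi1, are known from the later pronephros, Mecom from its distal parts. None of these genes is confined to the kidney. Lhx1 is also known from the organizer and the notochord, Osr1 from endoderm, and Pax2 from the midbrain-hindbrain boundary, the eye and the ear.

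Values are log2 intensities normalized by the authors, and an arm difference is the arrays labelled RA-depleted minus those labelled control at the same stage, with limma's standard error (SE) and adjusted p. A probe set was called where limma's p, adjusted by Benjamini-Hochberg over all 32475 probe sets, was under 0.05. Values of the 3 arrays of a group are given in the order of their replicate numbers. Arrays with the same stage and number deviated together in both arms, so a fit that takes each such pair as a block is given where it changes a call. Whether arrays with the same number also go together across stages was not tested. Calls between stages with the replicate number as a block carry that limit. As these are bulk samples, fewer cells of a type and less RNA per cell cannot be told apart.

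The probe sets of cyp26a1 did not all run the same way between the arms. For cyp26a1.S the brighter probe set read 8.34 to 9.44 on the 9 arrays labelled RA-depleted and 13.05 to 13.92 on the 9 labelled control, against the direction of an injected cyp26. Its mean arm difference over the stages was -4.76 (SE 0.13, limma adjusted p = 2.84e-11), and it was called at every stage. The dimmer cyp26a1.S probe set read 4.11 to 6.84 on the arrays labelled RA-depleted and 3.90 to 5.26 on those labelled control, higher by 1.17 over the stages (SE 0.17, limma adjusted p = 0.0147). The homeolog cyp26a1.L read 8.97 to 10.83 on the arrays labelled RA-depleted and 7.52 to 9.27 on those labelled control. Over the stages it was higher by 1.78 in the arm labelled RA-depleted (SE 0.20, limma adjusted p = 0.000762). At no single stage was the dimmer cyp26a1.S probe set or cyp26a1.L called (lowest limma adjusted p = 0.0702 and 0.0798, both at early neurula). dhrs3.L, a retinaldehyde reductase gene known to rise with RA, read 8.84 to 11.03 on the arrays labelled RA-depleted and 7.42 to 8.88 on those labelled control. It was higher by 1.70 over the stages (SE 0.12, limma adjusted p = 4.58e-06). A gene that RA raises would read lower under RA depletion, so dhrs3.L also ran against the labels. Which cyp26 gene was injected is not in the labels. Whether any of these cyp26a1 probe sets read the injected mRNA or the embryo's own was not tested. Their directions were set against an injected cyp26 alone, not against a response of the embryo's own cyp26a1 to RA. Every direction below follows the labels, and each arm difference would turn its sign if the arm labels were exchanged. Whether the labels are exchanged was not tested. The array medians of early gastrula spanned 5.85 to 5.91, those of mid-gastrula 5.47 to 5.51 and those of early neurula 5.48 to 5.51. Precision is limited by the number of arrays.

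At early neurula the arrays labelled RA-depleted gave higher readings of lhx1.L and mecom.L, through both mecom.L probe sets and the brighter 2 of the 3 of lhx1.L. The arms of osr2.L were also apart, and its call depended on the pairing. osr2.S, pax8.L, pax2.L and pax2-b were not called. In all, 4 of 17 probe sets were called, each of them higher, where 0.373% of all probe sets were called higher and 0.425% in either direction. The members were chosen with earlier results of these data known, so shares of all probe sets, here and below, are description and not a test of the members. At early gastrula and mid-gastrula 0 of 17 were called, where 0.00308% and 0.0185% of all probe sets were, and 0 of 17 had an unadjusted p under 0.05, where 1.52% and 2.28% of all did. With the replicate number or each pair as a block 5 of 17 were called at early neurula, all higher, where 0.81% and 2.47% of all were called higher. Fitted on the 6 neurula arrays alone, none of the 4 calls was kept (limma adjusted p = 0.508 and 0.476 for lhx1.L, 0.255 and 0.705 for mecom.L).

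The brightest lhx1.L probe set (Xl2.54421.1.A1_at) read 9.0, 8.49 and 9.11 in early neurula explants labelled RA-depleted and 6.51, 6.34 and 7.75 in those labelled control. The arms did not overlap, and array 3 of those labelled control stood closest to the other arm. The group means were 8.86 ± 0.33 and 6.87 ± 0.77 (SD, n = 3 each). The arm difference was 2.0 (SE 0.27, limma adjusted p = 0.00234), a 3.99-fold higher signal, with a 95% interval of 1.42 to 2.58. It was 2.49, 2.15 and 1.36 in the 3 numbered pairs.

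The next lhx1.L probe set (Xl2.32655.1.S1_at) moved the same way on a dimmer scale. It read 6.40, 5.66 and 6.28 in early neurula explants labelled RA-depleted and 4.63, 4.92 and 5.16 in those labelled control, again without overlap. Its arm difference was 1.21 (SE 0.16, limma adjusted p = 0.00234, 2.31-fold), with pairs at 1.77, 0.74 and 1.11. The neurula mean labelled control lay at the 43.2 percentile of its arrays, a level not shown to stand above background. The last of the lhx1.L probe sets (Xl2.54421.2.A1_at) lay between 3.70 and 4.13 on all 18 arrays and did not follow. Its neurula arm difference was 0.01, with an interval of -0.21 to 0.23.

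Before neurula the lhx1.L arms lay close together. At early gastrula the brightest probe set read 10.75, 10.74 and 10.95 in explants labelled RA-depleted and 10.78, 10.71 and 10.62 in those labelled control, an arm difference of 0.11 with an interval of -0.47 to 0.69. At mid-gastrula it read 9.51, 9.35 and 9.57 in explants labelled RA-depleted and 9.38, 9.04 and 8.94 in those labelled control. The arms overlapped there, while all 3 pairs ran higher in the array labelled RA-depleted. The mid-gastrula arm difference was 0.35 (SE 0.27, limma adjusted p = 1), with an interval of -0.23 to 0.93. The next probe set read 7.15, 7.07 and 7.21 against 7.04, 6.78 and 7.02 at that stage, RA-depleted arrays first, with no overlap and an arm difference of 0.20 (SE 0.16) that did not pass.

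The brighter lhx1.L probe sets read lower at later stages, while the dim one did not. In explants labelled control the brightest probe set fell by 1.58 at mid-gastrula relative to early gastrula (SE 0.27, limma adjusted p = 0.000196) and fell by 2.26 at early neurula relative to mid-gastrula (SE 0.27, limma adjusted p = 4.09e-06). In explants labelled RA-depleted it fell by 1.33 over the first interval (SE 0.27, limma adjusted p = 0.000796), and over the second the difference was -0.61 (SE 0.27, limma adjusted p = 0.0662). That last difference passed with the replicate number as a block (adjusted p = 0.0370) and with repeated quantile normalization (adjusted p = 0.0465). Over all 6 groups, the means of the brightest probe set were ordered 10.81, 10.70, 9.48, 9.12, 8.86 and 6.87, by stage and with the group labelled RA-depleted above the group labelled control within each stage. The arms at early gastrula and the arms at mid-gastrula, which are neighbours in this order, were not called apart, and neighbours of unlike stage and arm were not tested. The change of the arm difference between mid-gastrula and early neurula was 1.64 (SE 0.39, limma adjusted p = 0.352), and it passed when each pair was a block (adjusted p = 0.0124). For the next probe set that change was 1.01 (SE 0.23, limma adjusted p = 0.340), and 0.0524 was its adjusted p with pairs as blocks. It passed with the pair as a random effect (adjusted p = 0.0120) and without array 2 of the neurula explants labelled RA-depleted (1.24).

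**Figure D1:**
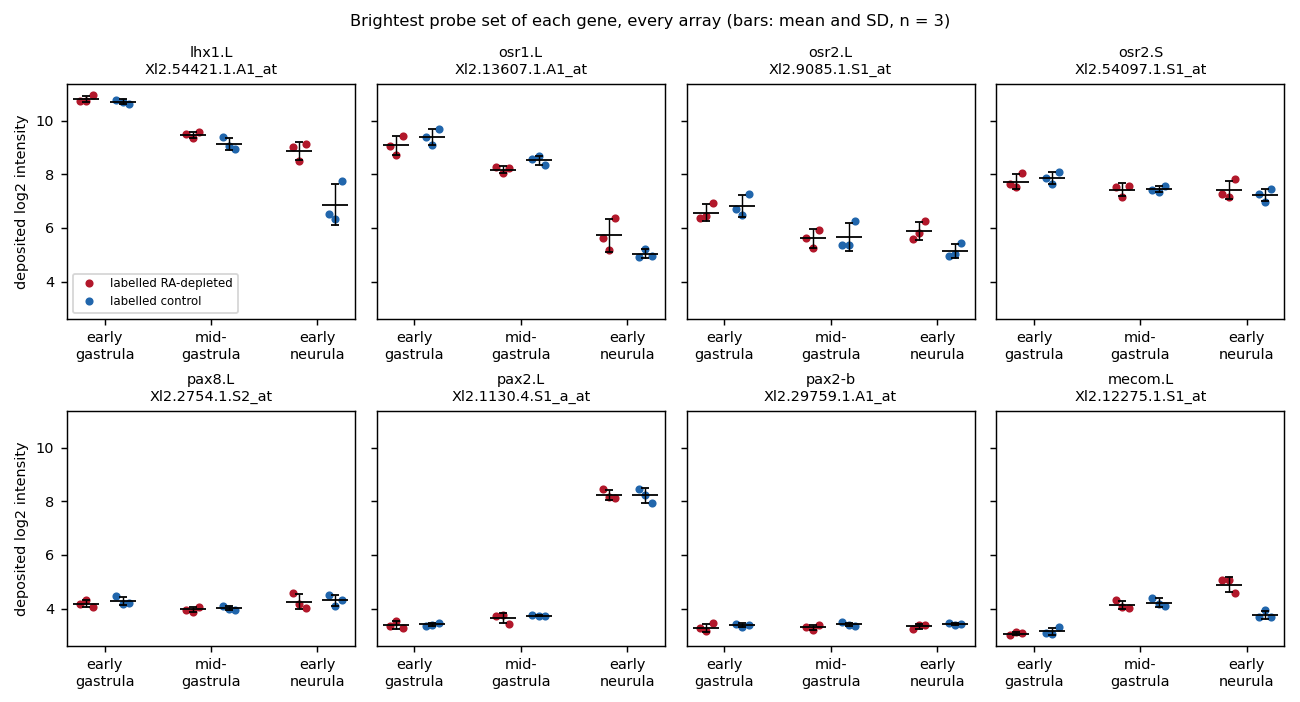
Deposited log2 intensity of the brightest probe set of each gene on every array, by stage, with arrays labelled RA-depleted (red) left of those labelled control (blue); horizontal bars are means and vertical bars SD of 3 arrays. The arms of lhx1.L and mecom.L are apart at early neurula, pax2.L stands at 7.94 to 8.47 at early neurula in both arms after 3.27 to 3.78 at the gastrula stages, and pax8.L and pax2-b stay below 4.6 throughout.

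For osr1.L (Xl2.13607.1.A1_at) the arms were never called apart, and the sign of the difference was not the same at every stage. At early gastrula it read 9.07, 8.73 and 9.42 in explants labelled RA-depleted and 9.39, 9.09 and 9.67 in those labelled control, a difference of -0.31 (SE 0.25, interval -0.84 to 0.22). At mid-gastrula it read 8.27, 8.03 and 8.23 in explants labelled RA-depleted and 8.56, 8.68 and 8.34 in those labelled control. These arms did not overlap, with every array labelled RA-depleted the lower, but the difference of -0.35 (SE 0.25, interval -0.87 to 0.18) did not pass (limma adjusted p = 1). At early neurula it read 5.64, 5.17 and 6.38 in explants labelled RA-depleted and 4.92, 5.23 and 4.95 in those labelled control. The arms overlapped there through array 2. The neurula difference was 0.69 (SE 0.25, interval 0.17 to 1.22, limma adjusted p = 0.533), with pairs at 0.71, -0.06 and 1.42, and it came to 0.37 when array 3 labelled RA-depleted was left out. The change of the arm difference between mid-gastrula and early neurula was 1.04 (SE 0.35, limma adjusted p = 1).

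osr1.L was much lower at early neurula than at mid-gastrula in both arms. Its neurula means lay at the 52.4 (labelled RA-depleted) and 44.9 (labelled control) percentiles of their arrays, levels not shown to stand above background. In explants labelled RA-depleted it fell by 2.45 at early neurula relative to mid-gastrula (SE 0.25, limma adjusted p = 5.88e-07), a 5.46-fold change. In explants labelled control it fell by 3.49 (SE 0.25, limma adjusted p = 1.36e-08), an 11.2-fold change. Between early gastrula and mid-gastrula the values were -0.90 in explants labelled RA-depleted and -0.86 in those labelled control, and both passed (limma adjusted p = 0.00696 and 0.00932). Neither passed with repeated quantile normalization (-0.63 and -0.62; adjusted p = 0.0569 and 0.0595) or with the arrays centred on their medians (-0.52 and -0.47; adjusted p = 0.0849 and 0.116).

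The homeologs osr2.L and osr2.S, copies of 1 odd-skipped gene, had neurula arm differences of 0.74 and 0.18, and the exact test run on the gap between them could not pass with 3 arrays in each arm. osr2.L (Xl2.9085.1.S1_at) read 5.58, 5.80 and 6.25 in early neurula explants labelled RA-depleted and 4.94, 5.02 and 5.44 in those labelled control, without overlap. The neurula mean labelled control lay at the 46.0 percentile of its arrays, a level not shown to stand above background. Array 3 was the highest in both arms. The difference was 0.74 (SE 0.28, interval 0.16 to 1.33), 1.67-fold, and was not called (limma adjusted p = 0.591). With the replicate number as a block it was (adjusted p = 0.00312), as it was with each pair as a block (adjusted p = 0.00224), and the 3 pairs read 0.65, 0.77 and 0.81. Over all 6 groups array 3 was the highest of its group in 6 of 6 for osr2.L and in 6 of 6 for osr2.S, a spread between replicate numbers that the block removes.

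osr2.S (Xl2.54097.1.S1_at) read 7.26, 7.17 and 7.81 in early neurula explants labelled RA-depleted and 7.26, 6.98 and 7.45 in those labelled control. The arms overlapped, and the pairs stood at -0.01, 0.19 and 0.36. The difference was 0.18 (SE 0.19, interval -0.22 to 0.59), and it was not called with the replicate number as a block (limma adjusted p = 0.542). Within each array, osr2.L lay 1.53 below osr2.S on average in neurula explants labelled RA-depleted and 2.09 below it in those labelled control. The arm differences read by these probe sets were 0.56 apart, with pairs from 0.45 to 0.65 and no overlap between the arms (exact permutation test, two-sided, p = 0.10, the smallest that 3 against 3 arrays allow). At the gastrula stages both homeologs had arm differences from -0.25 to -0.02, with intervals that held 0.

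The changes of the homeologs over the stages were not tested against each other. osr2.L was lower at mid-gastrula than at early gastrula by -0.97 in explants labelled RA-depleted (SE 0.28, limma adjusted p = 0.00863) and by -1.15 in those labelled control (SE 0.28, limma adjusted p = 0.00267). The first of these calls was lost with repeated quantile normalization (-0.57, adjusted p = 0.116) and with median centring (-0.59, adjusted p = 0.0801). osr2.S read -0.31 in explants labelled RA-depleted and -0.40 in those labelled control over the same interval, and neither passed (limma adjusted p = 0.196 and 0.0902). With the replicate number as a block both osr2.S values passed (adjusted p = 0.00915 and 0.00143), but with repeated quantile normalization they stood at 0.04 and -0.07, and with median centring at 0.07 and -0.02. Between mid-gastrula and early neurula osr2.L read 0.27 in explants labelled RA-depleted (SE 0.28, limma adjusted p = 0.420) and -0.53 in those labelled control (SE 0.28, limma adjusted p = 0.109), and with the replicate number as a block both passed, with opposite signs (adjusted p = 0.0431 and 0.000619). These stage calls with a block take the same numbers to belong together across stages, which was not tested. The change of the osr2.L arm difference over that interval was 0.80 (SE 0.39, limma adjusted p = 1), and it passed with each pair as a block (adjusted p = 0.0287). The span of the 6 group means was 1.69 for osr2.L and 0.62 for osr2.S.

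Both pax8.L probe sets were dim on every array, and neither was called between the arms. Xl2.2754.1.S2_at lay between 3.88 and 4.57 and Xl2.2754.1.S1_at between 3.62 and 4.28 over the 18 arrays, which put them between the 19.2 and 38.5 percentiles of their arrays. The deposited values carry no detection call, so whether these readings stand above background was not tested. The neurula arm differences were -0.05 (SE 0.14, interval -0.34 to 0.24) and 0.17 (SE 0.11, interval -0.07 to 0.42). Between mid-gastrula and early neurula the second probe set was 0.29 higher in explants labelled RA-depleted (SE 0.11, limma adjusted p = 0.0414), a call lost in 7 of 14 alternatives, and 0.11 higher in those labelled control (SE 0.11, limma adjusted p = 0.417).

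**Figure D2:**
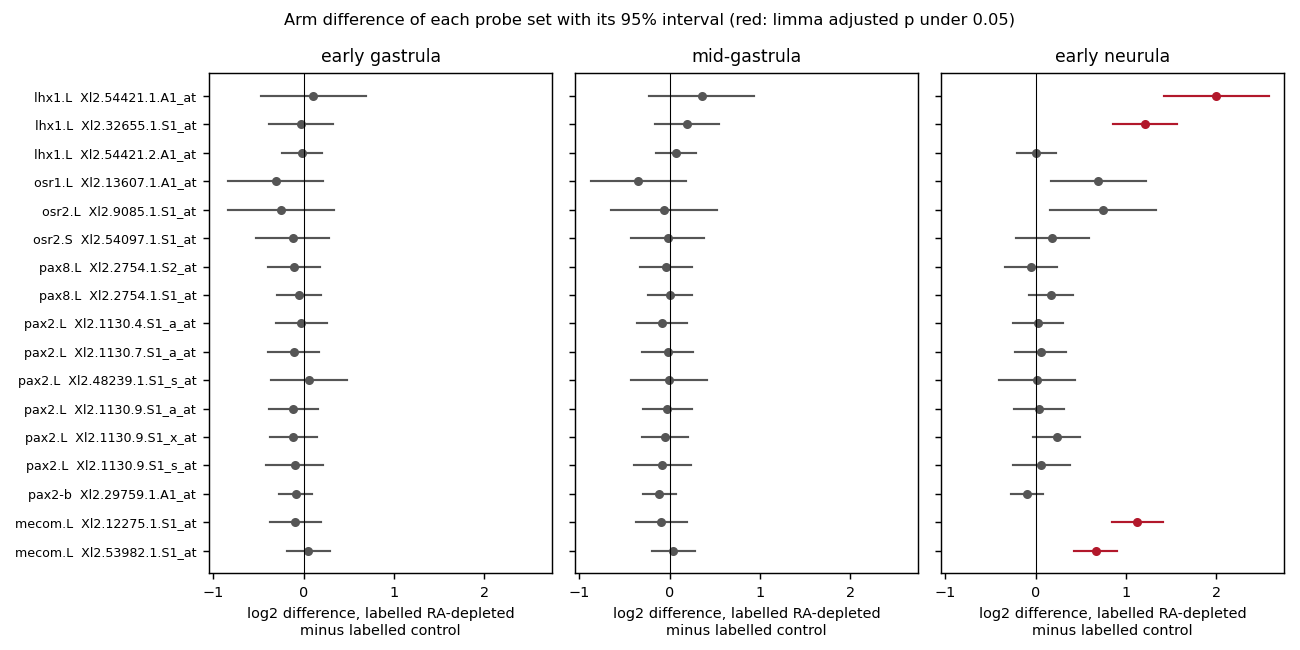
Arm difference (arrays labelled RA-depleted minus those labelled control, log2) of each of the 17 probe sets at early gastrula, mid-gastrula and early neurula, as limma's estimate (point) with its 95% interval (line). At early neurula 4 probe sets, of lhx1.L and mecom.L, passed the test (red), and at the other stages none did.

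mecom.L was called between the arms by both of its probe sets at early neurula, and by neither before. Xl2.12275.1.S1_at read 5.05, 5.05 and 4.57 in early neurula explants labelled RA-depleted and 3.69, 3.94 and 3.67 in those labelled control. Every array labelled RA-depleted lay above every array labelled control. The arm difference was 1.12 (SE 0.13, limma adjusted p = 0.000683), with an interval of 0.84 to 1.41 and pairs at 1.36, 1.11 and 0.90.

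Xl2.53982.1.S1_at read 4.66, 4.30 and 4.04 in early neurula explants labelled RA-depleted and 3.76, 3.58 and 3.67 in those labelled control, also without overlap. Its arm difference was 0.66 (SE 0.11, limma adjusted p = 0.0115), with pairs at 0.90, 0.71 and 0.37, and the call was lost without array 2 of those labelled control (0.62, adjusted p = 0.0692). Both probe sets were dim. They lay no higher than the 45.1 and 39.9 percentiles of their arrays. Their neurula means labelled control lay at the 21.7 and 19.0 percentiles, not shown to stand above background, so no fold is given.

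The neurula difference of mecom.L was not seen at mid-gastrula, and for the first probe set the arms moved in opposite directions after it. At mid-gastrula that probe set read 4.31, 4.07 and 4.02 in explants labelled RA-depleted and 4.41, 4.17 and 4.09 in those labelled control, a difference of -0.09 (SE 0.13, interval -0.38 to 0.19). Between mid-gastrula and early neurula it rose by 0.76 in explants labelled RA-depleted (SE 0.13, limma adjusted p = 0.000160) and fell by 0.46 in those labelled control (SE 0.13, limma adjusted p = 0.00785). The difference between these courses was 1.22 (SE 0.19, limma adjusted p = 0.0284), the single call among the 17 for the change of the arm difference, where 0.0585% of all probe sets were called. With each pair as a block 4 of 17 were, 2 of mecom.L with lhx1.L and osr2.L, where 0.921% of all were. That call was lost without any 1 of 8 of the 12 arrays concerned, while its value stayed between 1.12 and 1.37.

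The other mecom.L probe set rose by 0.57 over that interval in explants labelled RA-depleted (SE 0.11, limma adjusted p = 0.000422) and read -0.05 in those labelled control (SE 0.11, limma adjusted p = 0.711). Its change of arm difference was 0.62 (SE 0.16, limma adjusted p = 0.481), and it passed with each pair as a block (adjusted p = 0.0454). Between early gastrula and mid-gastrula both probe sets rose alike in the arms. The first rose by 1.06 in each arm (SE 0.13) and the second by 0.49 in explants labelled RA-depleted and by 0.50 in those labelled control (SE 0.11), all 4 past the test and all 4 higher under each scaling tried. The early gastrula means of both probe sets lay at the 3.0 to 8.1 percentiles of their arrays. Those at mid-gastrula lay at the 23.5 to 33.8 percentiles, and neither level was shown to stand above background.

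**Figure D3:**
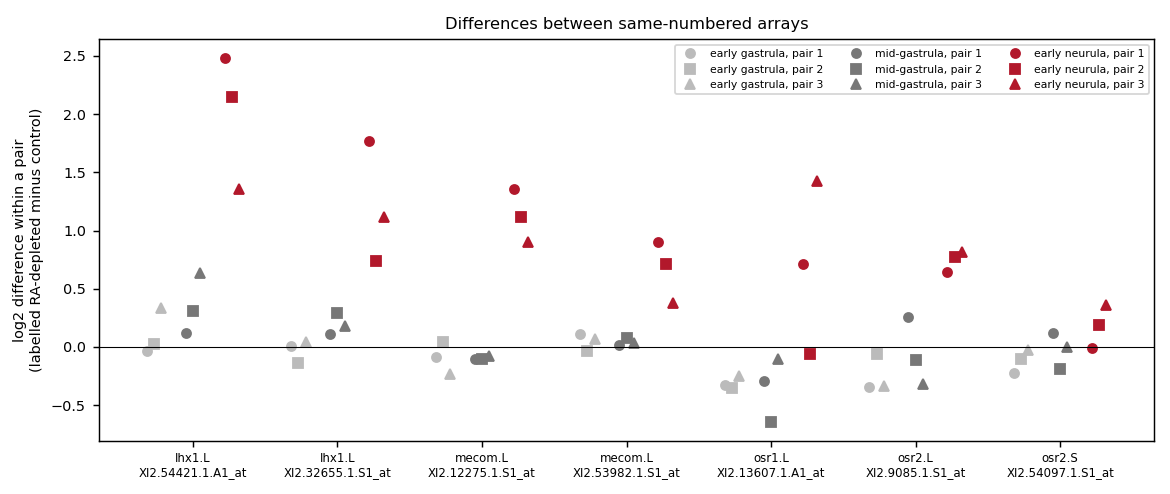
Log2 difference between the array labelled RA-depleted and the same-numbered array labelled control, for 7 probe sets of lhx1.L, mecom.L, osr1.L, osr2.L and osr2.S; grey marks are early gastrula, dark grey marks mid-gastrula and red marks early neurula, with a shape for each replicate number. All 3 neurula pairs lie above 0 for the brighter lhx1.L probe sets, both of mecom.L and osr2.L, while osr1.L has 1 pair at -0.06 and osr2.S 1 at -0.01. The dim lhx1.L probe set (Xl2.54421.2.A1_at) is not drawn, and its neurula pairs were 0.14, 0.04 and -0.15.

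pax2.L came up in both arms at early neurula to nearly the same level. Its brightest probe set (Xl2.1130.4.S1_a_at) read 3.37, 3.53 and 3.27 in early gastrula explants labelled RA-depleted and 3.36, 3.40 and 3.47 in those labelled control. At early neurula it read 8.45, 8.15 and 8.12 in explants labelled RA-depleted and 8.47, 8.23 and 7.94 in those labelled control. The arms overlapped throughout. The rise between mid-gastrula and early neurula was 4.59 in explants labelled RA-depleted (limma adjusted p = 2.28e-12) and 4.48 in those labelled control (limma adjusted p = 3.08e-12), each with an SE of 0.13. The mid-gastrula means lay at the 21.4 and 23.8 percentiles of their arrays, a level not shown to stand above background, so no fold is given.

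The other 5 pax2.L probe sets lay between 3.09 and 4.35 at the gastrula stages and between 5.37 and 8.08 at early neurula. Their rises between mid-gastrula and early neurula reached 3.85 at most in explants labelled RA-depleted and 3.83 at most in those labelled control, all past the test. The neurula arm differences of the 6 probe sets were 0.01 to 0.23, with intervals that held 0. For the brightest the interval was -0.25 to 0.30, so an arm difference of the size seen for lhx1.L lay outside it. The widest difference belonged to Xl2.1130.9.S1_x_at (0.23, SE 0.12, interval -0.03 to 0.49). Its pairs stood at 0.24, 0.18 and 0.28, all higher, and with each pair as a block it was not called (limma adjusted p = 0.108). These 6 probe sets share a gene symbol, and 5 of them a cluster number, and 3 carry the suffixes _s_at or _x_at, which mark probe sets that can match several transcripts, so they are not 6 independent readings.

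The symbol pax2-b, which the gene table lists as a synonym of pax2.L, belonged to a probe set that did not follow the others. Xl2.29759.1.A1_at lay between 3.16 and 3.49 on all 18 arrays, at the 16.6 percentile of an array at the highest. Its change between mid-gastrula and early neurula was 0.04 in explants labelled RA-depleted and 0.02 in those labelled control (SE 0.08), and its neurula arm difference was -0.10 (SE 0.08, interval -0.28 to 0.08). Which stretch of a transcript a probe set reads was not analysed here.

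**Figure D4:**
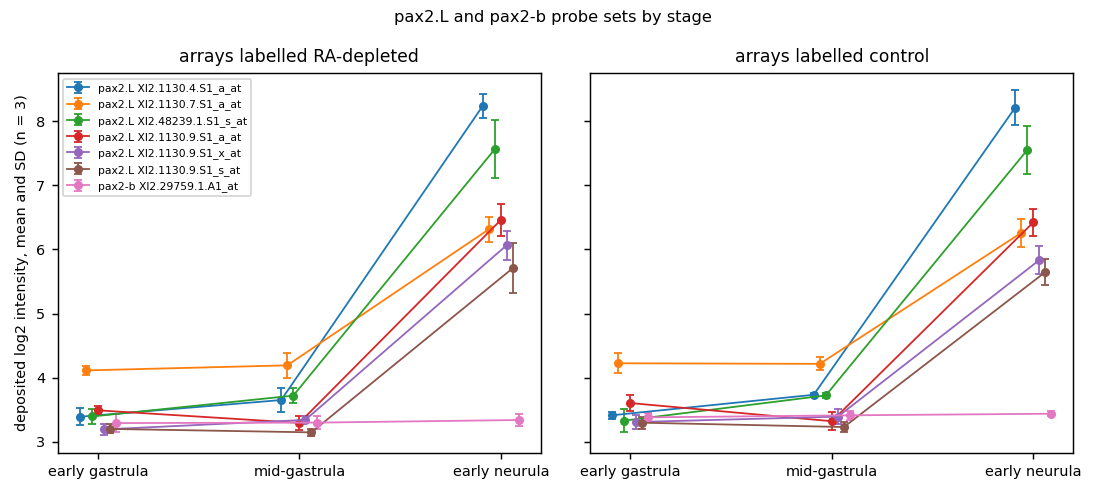
Mean log2 intensity of the 6 pax2.L probe sets and the pax2-b probe set at the 3 stages, in arrays labelled RA-depleted (left) and labelled control (right); bars are SD of 3 arrays. The 6 pax2.L probe sets stand at group means of 5.65 to 8.24 at early neurula in both arms, and the pax2-b probe set stays between 3.29 and 3.44.

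Arm groups that did not overlap were counted for all 17 probe sets. At early neurula there were 5, all higher in the arrays labelled RA-depleted (2 of lhx1.L, 2 of mecom.L and osr2.L), where 9.5% of all probe sets did not overlap and 4.4% were higher without overlap. At mid-gastrula there were 2, a lhx1.L probe set higher and osr1.L lower, where 5.82% of all probe sets did not overlap, 3.08% as higher and 2.75% as lower. At early gastrula there were 0, where 5.1% did not. For the mean of the arm differences over the stages 0 of 17 passed, where 0.0862% of all probe sets were called. Of the 17, 2 passed with the replicate number as a block, both of lhx1.L (0.82 and 0.46; adjusted p = 0.0210 and 0.0266), where 0.527% of all were called, and 4 with each pair as a block, where 2.85% were. Those 4 were the same lhx1.L probe sets and both of mecom.L (0.31 and 0.25; adjusted p = 0.00846 and 0.0235).

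Probe sets of 1 gene were also set against each other within arrays, in 11 pairs of probe sets or homeologs. At early neurula the arms of that within-array difference did not overlap in 4 of the 9 pairs that share a symbol, against 8.85% of 4192 pairs of probe sets of one symbol over the array, and in 1 of the other pairs, osr2.L with osr2.S, for which no background was computed. At early gastrula and mid-gastrula 0 of 9 were without overlap, against 4.82% and 4.94%, and 0 of the 11 in all. The brighter lhx1.L probe set stood 2.75 above the next in early neurula explants labelled RA-depleted and 1.96 above it in those labelled control, so its arm difference was larger by 0.79. The mecom.L probe sets differed by 0.46 in the same sense, 0.56 apart in explants labelled RA-depleted and 0.10 apart in those labelled control. The others were the brightest against the dim lhx1.L probe set (1.99), osr2.L against osr2.S (0.56) and the brightest pax2.L probe set against Xl2.1130.9.S1_x_at (-0.21). Each had an exact permutation p of 0.10, the smallest possible, so none of these 11 comparisons could pass 0.05. That test moved arrays between the arms freely and did not keep same-numbered pairs together. The pairs of a gene share its brightest probe set, and for lhx1.L and mecom.L that one was already called between the arms. The count without overlap is therefore not independent of those calls.

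Early to mid-gastrula changes carry a scaling question, since the array medians differ between those stages. The median change of all probe sets between early gastrula and mid-gastrula was -0.18 in explants labelled RA-depleted and -0.19 in those labelled control as deposited, -0.02 and -0.01 with repeated quantile normalization, and 0.20 in both with median centring. The set of arrays that the authors normalized together is not given in the sources used here. Of the 17 probe sets, 6 were called in explants labelled RA-depleted over that interval (2 higher, 4 lower) and 6 in those labelled control (2 higher, 4 lower), where 50.2% and 49.5% of all probe sets were called. The higher calls were 12.1% and 11.2% of all probe sets and the lower calls 38.1% and 38.2%. With median centring the split was 9 higher and 2 lower in explants labelled RA-depleted and 8 higher and 3 lower in those labelled control, and over all probe sets it was 12701 higher and 5657 lower, and 12647 higher and 5430 lower. Both brighter lhx1.L probe sets stayed lower and called, and both mecom.L probe sets higher and called, in both arms under every scaling.

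Between mid-gastrula and early neurula the medians of the arrays differed little, and the same scalings moved few values. There 11 of 17 were called in explants labelled RA-depleted (9 higher, 2 lower) and 10 of 17 in those labelled control (6 higher, 4 lower), where 59.1% and 59.3% of all probe sets were called. The higher calls were 32.7% and 33.2% of all probe sets and the lower calls 26.4% and 26.1%. The lower ones were a lhx1.L probe set and osr1.L in explants labelled RA-depleted, and 2 lhx1.L probe sets, osr1.L and a mecom.L probe set in those labelled control. With the replicate number as a block there were 14 calls in explants labelled RA-depleted, with lhx1.L, osr2.L and pax8.L added, and 13 in those labelled control, with osr2.L, osr2.S and pax8.L added, where 66.9% and 67.5% of all were called. Called in either direction without a block, the members' shares were close to those of all probe sets. In explants labelled RA-depleted the higher calls were a larger share of the members than of all probe sets, and the lower calls a smaller one. The higher calls of each arm included all 6 pax2.L probe sets, which are not independent readings.

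Other genes of the pronephros were read from a list. Of 48 listed symbols 27 were measured, as 32 homeologs, and 0 of 32 were called at early neurula, where 0.425% of all probe sets were, a share too small for that count to set the list apart. Of these, 17 lay above 0, and their median was 0.01, against -0.01 over all probe sets. At early gastrula and mid-gastrula 0 of 32 were called as well, with a median of -0.03 at each. At early neurula, the stage of the values that follow, the homeobox gene irx3.L, known from the proximal and intermediate tubule, read 0.74 (SE 0.24, limma adjusted p = 0.414). There wnt4.L, a signal needed for tubule formation, read 0.47 (SE 0.18, limma adjusted p = 0.641). wnt11b.L, a ligand of the same family, read -0.67 (SE 0.30, limma adjusted p = 0.832). With the replicate number as a block atp1b1.S, a sodium pump subunit gene of the transporting tubule, passed as lower (-0.52, SE 0.13, limma adjusted p = 0.0232). That fit called 107 of 32475 probe sets lower. The podocyte regulator wt1.L read 0.07 (SE 0.10) and the tubule regulator hnf4a.S 0.10 (SE 0.10), neither past the test.

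Marker lists of the tissues where these factors are also known were read at the same stage. Of all probe sets 48.1% lay above 0 there, and 0.425% were called. Each homeolog counts as a gene in the lists. For paraxial mesoderm and muscle the median arm difference was 0.41, with 19 of 25 genes above 0 and 0 called, and their mean level was 8.40 to 8.76 on the arrays labelled RA-depleted and 8.12 to 8.47 on those labelled control. For the organizer and axial mesoderm the median was -0.26, with 6 of 20 above 0 and 0 called, at mean levels of 6.80 to 7.07 on the arrays labelled RA-depleted and 6.69 to 7.40 on those labelled control. Neural plate and otic genes had a median of -0.02 with 12 of 25 above 0 and 0 called, at mean levels of 6.01 to 6.07 and 5.96 to 6.12 on the same arrays. The part of these tissues in the lhx1.L and mecom.L differences was not tested. Lateral plate and heart (21 genes, median -0.05), blood and endothelium (13, -0.16), endoderm (17, -0.13), epidermis (17, 0.01) and reference genes (13, 0.02) had 0 called each. In the fit with the replicate number as a block 1 paraxial gene was called higher (mespa.L, 1.21, limma adjusted p = 0.0171), and in endoderm darmin.L and foxa1.L were called higher (0.99 and 0.54, limma adjusted p = 0.0135 and 0.0336) and vegt.S lower (-1.08, limma adjusted p = 0.00451), while the other lists of tissues and reference genes kept 0. Over all 32475 probe sets that fit called 263 higher and 107 lower. Of 16 listed RA target symbols 11 were measured, as 14 homeologs. Of these 14, 3 were called higher at early neurula, where 0.373% of all probe sets were, with a median of 0.73. They were dhrs3.L, hoxa3.S and znf703.S, and with the block 6 of 14 were called higher, where 0.81% of all were. At early neurula 13 of the 14 lay above 0, and for the mean of the stages 14 of 14 did. Targets that RA raises would read lower under RA depletion, so this direction ran against the labels, as that of dhrs3.L did. The cyp26a1 probe sets were set against an injected cyp26 instead. The brighter cyp26a1.S probe set ran against that direction, and the dimmer one and cyp26a1.L ran with it.

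The genes whose readings followed each member most closely over the 18 arrays were looked up among probe sets with 1 symbol (7183 for lhx1.L and mecom.L, 7184 for osr1.L and osr2.L, 7179 for pax2.L) and a span of group means of at least 1. For the brightest lhx1.L probe set the closest were 2 probe sets of prickle1.L, a planar cell polarity gene (Pearson r 0.987 and 0.971), and cfap300.L (0.942), and 38 probe sets in all exceeded 0.9. For the mecom.L probe sets the closest were 2 probe sets of vcan.L, which encodes the matrix proteoglycan versican (0.929 and 0.917), and pim1.L, a kinase gene (0.915), for the brighter, and slc2a2.L, a glucose transporter gene (0.916), pim1.L (0.910) and LOC100037118 (0.899) for the other. Few probe sets were that close, 7 and 2 above 0.9.

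osr1.L was closest to mig30.L (0.989), strn.S (0.987) and gata4.S, a heart and endoderm regulator (0.986), with 2111 probe sets above 0.9, and the brightest pax2.L probe set to MGC80748 (0.997), angptl2.S (0.996) and slit2.S, an axon guidance ligand gene (0.996), with 1272 above 0.9. osr2.L was closest to prorsd1p.L (0.939), slc35f2.L (0.934) and lrrc58.S (0.912), with 4 above 0.9. For the next lhx1.L probe set the closest were dusp5.S, a MAP kinase phosphatase gene (0.974), prickle1.L (0.970) and plekha1.S (0.970), with 1678 above 0.9. These correlations share the arrays and, for the most part, the stage course, and are given as a description.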

How the data were processed

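RNA from 18 samples in 6 groups, made into biotin-labelled cRNA from 6 µg of total RNA, was measured on Affymetrix Xenopus laevis arrays. The authors deposited RMA log2 intensities, computed with affy per the submitters' processing notes; versions are not given in the sources used here. Of 32635 probe sets 160 controls were left out. Symbols came from the array annotation (15495 probe sets had 1 symbol, 279 several, 16701 none), and 7 of the 8 member symbols had an Entrez identifier in the RefSeq gene table of Xenopus_laevis_v10.1, used for names alone. Of each listed gene with several probe sets the brightest was used.

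A model with a mean per group was fitted over all 18 arrays using R 4.3.3 and its package limma 3.58.1, so that the groups share a spread per probe set, with Benjamini-Hochberg adjustment over 32475 probe sets. Differences between probe sets of a gene were tested with an exact permutation test that did not use the pairing of same-numbered arrays. On simulated data of the early neurula comparison (32475 probe sets) the share of seeded log2 changes found was 36.8% at 0.5, 79.6% at 1 and 98.0% at 2. The simulated arrays were independent of each other, without the pairing of same-numbered arrays, so these shares need not hold for the measured arrays. Figures were drawn with matplotlib 3.10.9.

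With group means removed, same-numbered arrays of a stage correlated across probe sets between the arms at 0.637 to 0.838. The numbers were therefore taken to pair the samples of a stage. Arrays with other numbers correlated at -0.481 to -0.113. Deviations from a group mean cancel within the group, so those negative values follow in part from the arithmetic. Correlations between arrays of different stages were not computed. The pairing comes from the replicate numbers in the labels. The replicate number as a block shared by the stages, and each of the 9 pairs as a block, were alternatives, beside the pair as a random effect, a fit on the compared arrays alone, removal of probe sets that reach 6 on fewer than 3 arrays (the dim filter), quantile normalization, median centring, another variance model, array weights, omission of probe sets that can match several transcripts, and each array left out.

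All 17 member probe sets are named whatever their result. Of the lists, up to 4 called genes with the largest difference are named, and irx3.L, wnt4.L, wnt11b.L, wt1.L and hnf4a.S, and those called only with a block, were chosen after their values were seen. The 3 closest probe sets of other genes by Pearson r are named for members whose group means span at least 1; for the dimmer pax2.L probe sets they are not printed. The members and lists were chosen with earlier results of these data known.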

Additional observations from a re-analysis of the deposited data

Results flagged for a closer look

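The mecom.L probe set Xl2.12275.1.S1_at had an arm difference that was not the same at early neurula and mid-gastrula by a test of the change itself. The difference was 1.12 at early neurula and -0.09 at mid-gastrula, a change of 1.22 (SE 0.19, limma adjusted p = 0.0284), and the 3 neurula pairs lay above 0 while the 3 mid-gastrula pairs lay below it. The call was lost in 9 of 21 alternatives, namely without any 1 of 8 single arrays and on the compared arrays alone (adjusted p = 0.256), with values from 1.12 to 1.37.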

How the results depend on the processing

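The 4 calls at early neurula kept their direction under every alternative. With the replicate number as a block or each pair as a block there were 5 calls among the members, osr2.L being added, and over all probe sets 370 and 1405 against 138 without a block (1278 with a random block). Fitted on the 6 compared arrays alone, 0 members and 6 probe sets in all were called, with fewer arrays behind each spread. The dim filter kept 9 of 17 members and 2 calls, both of lhx1.L, since mecom.L was left out. Leaving out each array gave 3 to 4 calls, and 218 over all probe sets without array 3 of those labelled control. At early gastrula and mid-gastrula the member count stayed 0 under every alternative, while 492 and 742 probe sets had an unadjusted p under 0.05 (0 members), and over all probe sets the calls were 2 and 12 with the replicate block, 12 and 61 with each pair as a block, and 19 and 48 with a random block, against 1 and 6. At mid-gastrula they were 2 to 5 without single arrays and 3 on the compared arrays alone.

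For the mean over stages, members called numbered 2 with the replicate block, 4 with each pair or a random block, 1 with array weights and 0 to 2 without single arrays, against 0. For the change of the arm difference they numbered 4 with each pair or a random block, 0 with the dim filter, 0 on the compared arrays alone and 0 to 2 without single arrays, against 1. Over all probe sets the mean over stages gave 171 calls with the replicate block, 924 with each pair as a block, 730 with a random block, 46 with array weights and 16 to 51 without single arrays, against 28. The change of the arm difference gave 53, 299 and 254 with those blocks, 8 with the dim filter, 4 on the compared arrays and 7 to 35 without single arrays, against 19. Median centring raised the early to mid-gastrula calls among members to 11 in each arm, against 6, and over all probe sets turned 3924 higher and 12365 lower into 12701 and 5657 in explants labelled RA-depleted, and 3652 and 12408 into 12647 and 5430 in those labelled control. Repeated quantile normalization gave 6402 and 7435, and 6121 and 7198. Median centring turned the sign of 4 values that were not called as deposited and were called after it: the dim lhx1.L probe set (0.36 in explants labelled RA-depleted, 0.28 in those labelled control), pax8.L Xl2.2754.1.S1_at (0.30, labelled RA-depleted) and pax2.L Xl2.1130.7.S1_a_at (0.38, labelled control). Other uncalled values also changed sign with it and stayed uncalled. The dim filter left 6 calls between mid-gastrula and early neurula in explants labelled RA-depleted, against 11. Among the 11 probe set pairs, the mid-gastrula count without overlap was 1 after quantile normalization, 4 had all same-numbered pairs on 1 side of 0 (replicate block), and without single arrays the early gastrula count was 0 to 2, the mid-gastrula count 0 to 3 and the early neurula count 5 to 6. The causes were not tested. With 3 arrays a group and no detection calls, the dim pax8.L, pax2-b and mecom.L readings limit what can be said of these genes.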
